A study of Mus musculus with 10 samples.

Results

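Macrophage and monocyte genes were compared in subcutaneous fat of mice that differ at Fob3a, an obesity locus on chromosome 15. The set holds 37 genes known as markers of resident, lipid-associated and monocyte-derived macrophages and listed by symbol, with chemokines, class II genes and integrins left out. All 37 were measured, among 19659 genes in all, each by 1 probe set of its own. The inguinal-femoral white fat came from 10 untreated female F2 mice aged 14 weeks on chow. FF mice (n = 5) were homozygous for the Fat-line allele at Fob3a, and VV mice (n = 5) were homozygous for the allele of the V line, which the labels also call the lean-line allele. The V line is a congenic line made by 11 to 12 backcrosses to the Fat line with other loci removed by markers, so both genotypes carry a largely Fat-line background, and the V-line segment can hold genes besides the one that gives the locus its effect. Each array came from a separate animal, and the values are normalised log2 intensities. The number of arrays limits the precision.

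Macrophages live in fat from early life and are renewed in part from blood monocytes. Their identity depends on the transcription factor PU.1 and on signals through the receptor of colony-stimulating factor 1, and they clear dying cells, take up lipid and debris and present antigen. In obese fat they are known to gather around dying adipocytes, where lipid-associated macrophages carry Trem2, Cd9, Lgals3 and Gpnmb. Resident macrophages of lean fat carry scavenger and folate receptors such as Mrc1, Cd163, Timd4 and Folr2. Several of these genes are not made by macrophages alone: Fcgr2b is also made by B cells, and Axl and Cd9 by other cells of fat.

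Every one of the 37 genes lay lower in the fat of FF mice. For 1 of them, the inhibitory Fc receptor gene Fcgr2b, the fall passed the test over all genes. The differences, FF minus VV in log2 units, ran from -0.78 for Mpeg1 to -0.02 for Retnla, with a median of -0.27. Across all 19659 genes the median difference was 0.00081 and 49.7% of the differences were below 0. In limma with Benjamini-Hochberg adjustment at a threshold of 0.05, 0.132% of all genes fell in FF and 0.753% changed in either direction. At an unadjusted p under 0.05, 23 of the 37 lay lower and 0 higher, against 6.18% of all genes lower. The FF and VV mice did not overlap for 6 of the 37, all lower in FF, against 1.34% of all genes lower without overlap. Genes of one cell type are not independent of each other, so these counts are a description. Fewer macrophages and less of these RNAs per macrophage cannot be told apart in whole fat. Without VV mouse 2, in which the genes were highest, 0 members passed the test, 20 lay lower at an unadjusted p under 0.05 and the median difference was -0.23. Array medians were 7.15 to 7.17 in FF and 7.18 to 7.21 in VV, and after they were subtracted 36 of 37 members lay lower, with a median of -0.23.

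**Figure D1:**
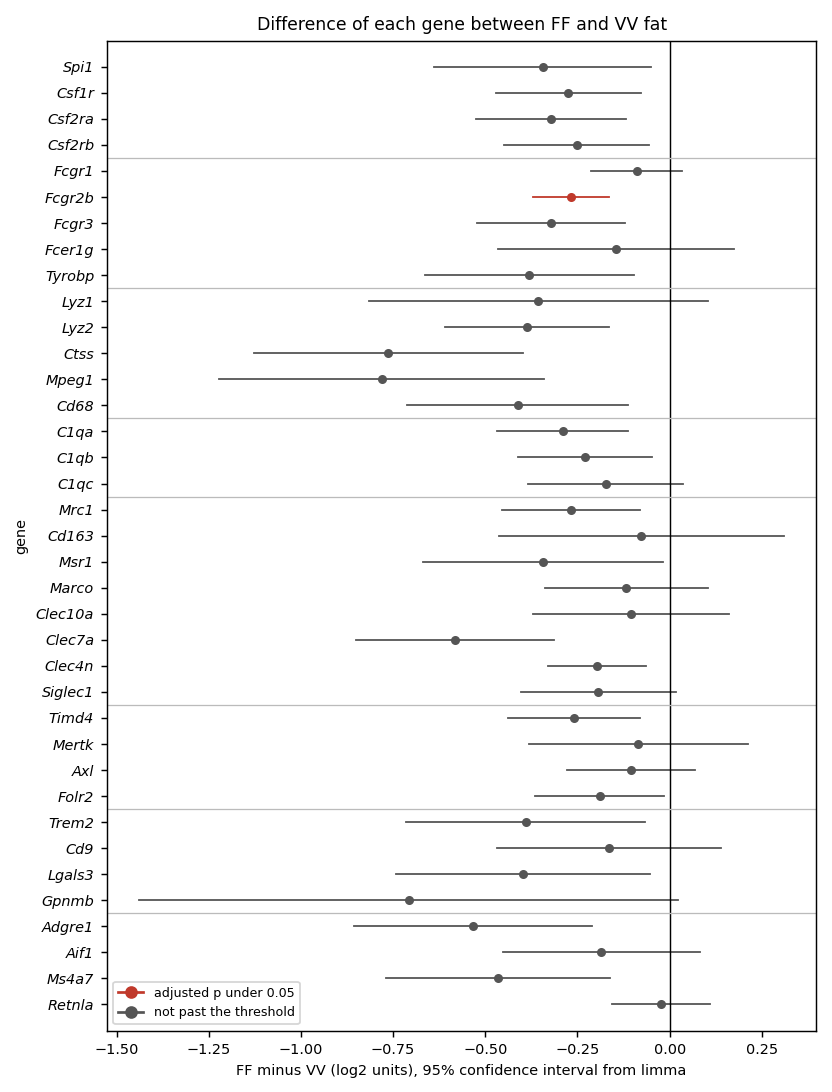
Difference of each of the 37 macrophage and monocyte genes between FF and VV fat in log2 units (points, FF minus VV, 5 mice each) with 95% confidence intervals from limma (bars), grouped by role from top to bottom and separated by grey lines. Every point lies left of 0, and Fcgr2b, in red, is the gene past the adjusted threshold.

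The upstream sequences of some members are shown, with motifs known to be bound by PU.1 and IRF8, discussed further on, or by AP-1. Whether these motifs bear on the lower levels in FF was not tested. RefSeq promoter windows on GRCm38.p6, from 250 bases before to 50 after the annotated start, were at hand for 27 of the 37 members, and the first window listed for a gene was used. On either strand, GAGGAA, a core read by PU.1, lay in 15 of the 27 windows and in 28.3% of the windows of all genes. GGAA followed after any 2 bases by GAAA, a composite of an ETS and an IRF half-site of the kind that PU.1 and IRF8 bind together, lay in 5 of the 27 windows (Fcgr2b, Clec7a, Folr2, Timd4 and Cd68) and in 2.79% of all. TGACTCA, an AP-1 site, lay in 2 of the 27 and in 5.17% of all. GAGGAA and the composite motif can overlap in the letters GGAA. A match describes letters in the window and not a bound site. The 150 bases before the start are given 5′ to 3′ on the strand of the gene, with the composite motif or its reverse complement in capitals in the first 4 and GAGGAA or its reverse complement in the last 2. In this order they lie at chr1:170976072-170976221 (minus strand), chr6:129472780-129472929 (minus strand), chr11:46810649-46810798 (plus strand), chr7:101857191-101857340 (minus strand), chr2:14229264-14229413 (plus strand) and chr17:48346251-48346400 (plus strand).
Fcgr2b: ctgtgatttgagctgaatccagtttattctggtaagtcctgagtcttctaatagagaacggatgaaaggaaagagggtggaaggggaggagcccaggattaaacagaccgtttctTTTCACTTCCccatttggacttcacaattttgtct
Clec7a: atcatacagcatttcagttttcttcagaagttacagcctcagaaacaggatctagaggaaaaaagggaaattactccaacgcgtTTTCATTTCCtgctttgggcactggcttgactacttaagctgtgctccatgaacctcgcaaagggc
Timd4: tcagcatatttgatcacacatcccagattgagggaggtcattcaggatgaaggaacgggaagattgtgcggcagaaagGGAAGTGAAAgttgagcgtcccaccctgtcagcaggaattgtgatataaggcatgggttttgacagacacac
Folr2: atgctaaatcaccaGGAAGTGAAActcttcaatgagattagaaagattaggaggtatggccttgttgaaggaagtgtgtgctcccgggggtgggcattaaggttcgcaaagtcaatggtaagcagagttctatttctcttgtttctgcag
Mrc1: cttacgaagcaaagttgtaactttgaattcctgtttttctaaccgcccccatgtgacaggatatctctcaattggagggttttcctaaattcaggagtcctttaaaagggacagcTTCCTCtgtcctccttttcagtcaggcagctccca
Trem2: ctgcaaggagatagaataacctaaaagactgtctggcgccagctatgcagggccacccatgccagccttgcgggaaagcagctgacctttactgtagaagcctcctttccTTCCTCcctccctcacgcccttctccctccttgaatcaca

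Receptors for IgG and the adaptors Fcer1g and Tyrobp all lay lower in FF, with a median of -0.27 over 5 genes, and 1 of the 5 passed the test. Fcgr2b, on chromosome 1, encodes the receptor that dampens activation by immune complexes. Its log2 intensity was 9.06, 9.06, 9.10, 9.21 and 9.14 in FF mice 1 to 5, against 9.48, 9.34, 9.35, 9.34 and 9.40 in VV mice 1 to 5. The 5 FF mice all lay under the 5 VV mice, and the values within each genotype were close together. Fcgr2b fell by 0.27 ± 0.05 (SE), or 1.20-fold, with an average of 9.11 ± 0.06 in FF and 9.38 ± 0.06 in VV (SD of 5 mice) and an adjusted p of 0.0352 in limma. The call held without FF mouse 3, FF mouse 4 or VV mouse 1 and was lost without any one of the other 7 mice, with adjusted p from 0.0634 to 0.0965. Fcgr3, the activating low-affinity receptor, differed by -0.32 ± 0.09 (adjusted p = 0.113), with values of 8.21 to 8.58 in FF mice and 8.54 to 8.96 in VV mice. Its sequence is close to that of Fcgr2b, and whether the probes of one read the other was not tested. Fcgr1, the high-affinity IgG receptor, differed by -0.09 ± 0.06 (adjusted p = 0.481), with 6.93 to 7.07 in FF mice and 6.98 to 7.25 in VV mice.

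The adaptors Tyrobp and Fcer1g carry the activating motif (ITAM) that couples activating receptors to the kinase Syk. Tyrobp, the adaptor of Trem2 and related receptors, read 10.22, 10.23, 10.52, 10.53 and 10.73 in FF mice 1 to 5, against 10.77, 11.15, 10.98, 10.55 and 10.67 in VV mice 1 to 5. It differed by -0.38 ± 0.13 (adjusted p = 0.169), and FF mouse 5 reached into the range of VV. Fcer1g, the common gamma chain of Fc receptors, differed by -0.15 ± 0.15 (adjusted p = 0.665), with 10.86 to 11.28 in FF mice and 10.75 to 11.66 in VV mice, so its genotypes overlapped over the whole FF range.

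The lineage factor and the growth factor receptors all lay lower, with a median of -0.30. Spi1, which encodes PU.1, read 9.20, 9.21, 9.36, 9.39 and 9.65 in FF mice 1 to 5, against 9.58, 10.17, 9.79, 9.46 and 9.54 in VV mice 1 to 5. Its difference of -0.34 ± 0.13 (adjusted p = 0.227) came with overlap, since FF mouse 5 lay above 3 of the VV mice. Csf1r, the receptor through which CSF1 and IL-34 maintain macrophages, read 10.31, 10.59, 10.87, 10.58 and 10.50 in FF mice 1 to 5, against 10.77, 10.97, 10.78, 10.90 and 10.82 in VV mice 1 to 5. Here FF mouse 3 stood among the VV mice and the other 4 FF mice lay under all of them. Csf1r differed by -0.27 ± 0.09 (adjusted p = 0.154), and without FF mouse 3 it fell by 0.35 with an adjusted p of 0.0382. That was the only 1 of 22 alternative settings in which Csf1r passed the threshold, and its adjusted p in limma ran up to 0.319. The GM-CSF receptor chain Csf2ra differed by -0.32 ± 0.09 (adjusted p = 0.115), and 4 of 5 VV mice lay above every FF mouse, with 10.07 to 10.38 in FF mice and 10.37 to 10.82 in VV mice. Csf2rb, the shared beta chain, differed by -0.25 ± 0.09 (adjusted p = 0.186), with 9.71 to 10.10 in FF mice and 9.98 to 10.31 in VV mice. It is the member on chromosome 15, the chromosome of Fob3a, and whether it lies in the V-line segment was not analysed here.

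Genes of the phagosome and lysosome showed the largest median difference among the role groups, -0.41 over 5 genes, and 3 of the 5 had no overlap between the genotypes. Ctss encodes cathepsin S, a protease that trims the invariant chain of class II molecules. Its log2 intensity was 8.83, 9.06, 9.26, 9.20 and 9.48 in FF mice 1 to 5, against 9.96, 10.46, 9.95, 9.76 and 9.52 in VV mice 1 to 5. Every FF mouse lay under every VV mouse, although FF mouse 5 and VV mouse 5 were close. Ctss differed by -0.76 ± 0.17, a 1.70-fold lower level in FF (95% interval of the log2 difference -1.13 to -0.40), with an adjusted p of 0.0621 in limma. Mpeg1, the pore-forming perforin-2 of phagocytes, read 7.41, 8.13, 8.16, 8.18 and 8.27 in FF mice 1 to 5, against 8.79, 9.37, 8.93, 8.65 and 8.32 in VV mice 1 to 5. The genotypes were again apart, with FF mouse 1 far under the other FF mice and VV mouse 5 just above them. Mpeg1 differed by -0.78 ± 0.20 (adjusted p = 0.0887), and by -0.63 without FF mouse 1 or -0.64 without VV mouse 2.

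Lysozyme M, encoded by Lyz2, was measured at 11.68, 11.84, 12.20, 12.08 and 12.16 in FF mice 1 to 5, against 12.27, 12.54, 12.44, 12.36 and 12.28 in VV mice 1 to 5. These genotypes did not overlap, although the highest FF mouse and the lowest VV mouse were close. Lyz2 differed by -0.39 ± 0.10 (adjusted p = 0.092). Its close relative Lyz1, the lysozyme of Paneth cells in the mouse gut, read 10.25, 10.33, 10.93, 11.04 and 11.45 in FF mice 1 to 5, against 11.03, 11.06, 11.46, 11.20 and 11.03 in VV mice 1 to 5. In contrast to Lyz2, the FF mice were spread over 1.21 log2 units and reached almost the highest VV mouse, so Lyz1 (difference -0.36 ± 0.21, adjusted p = 0.443) did not separate the genotypes. The 2 genes are near-identical copies, and cross-reading between their probes was not tested. Cd68, a glycoprotein of the macrophage lysosome, differed by -0.41 ± 0.14 (adjusted p = 0.159), with 10.69 to 11.17 in FF mice and 11.02 to 11.71 in VV mice.

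**Figure D2:**
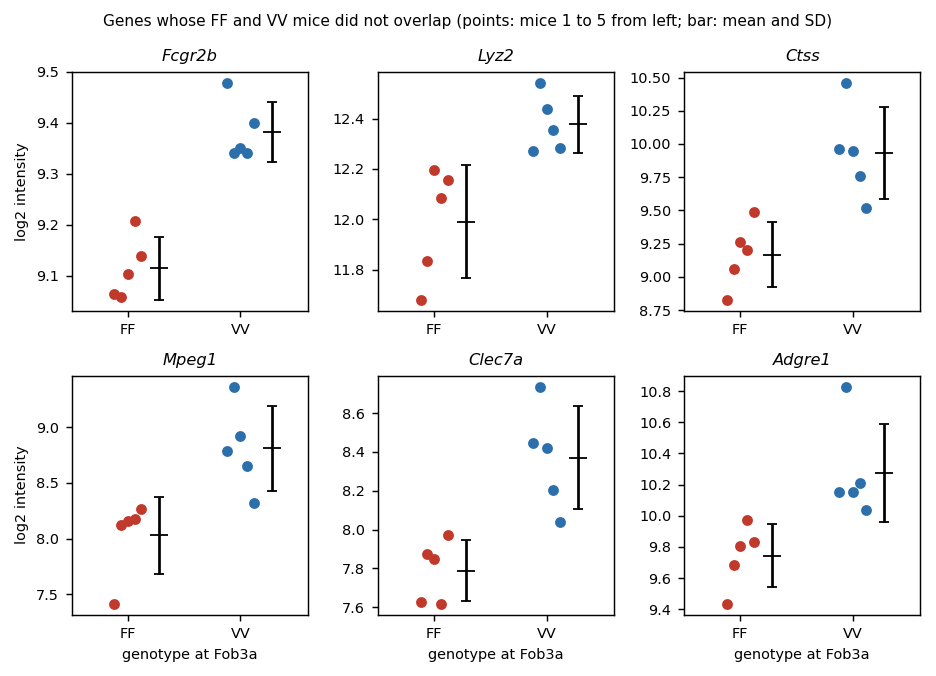
Log2 intensity of the 6 members whose genotypes did not overlap, by genotype (red, FF; blue, VV), with mice 1 to 5 from left to right and the mean and SD of 5 mice as a black bar; each panel has its own axis. In every panel the FF points lie under the VV points, and the scatter is smallest in Fcgr2b.

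The 3 chains of complement C1q, which tags dying cells and is made in fat largely by macrophages, are all encoded on chromosome 4 and had a median of -0.23. C1qa read 9.17, 9.37, 9.51, 9.51 and 9.63 in FF mice 1 to 5, against 9.76, 9.84, 9.71, 9.71 and 9.61 in VV mice 1 to 5. One FF mouse, number 5, lay above the lowest VV mouse, and the other 4 lay under all VV mice. The differences were -0.29 ± 0.08 for C1qa, -0.23 ± 0.08 for C1qb and -0.17 ± 0.09 for C1qc (adjusted p = 0.109, 0.19 and 0.405). The chains C1qb (11.79 to 12.00 in FF mice and 11.93 to 12.39 in VV mice) and C1qc (10.66 to 11.12 in FF mice and 10.88 to 11.25 in VV mice) overlapped more.

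Among scavenger, lectin and sialic acid receptors the differences were uneven. Clec7a, the beta-glucan receptor dectin-1, read 7.63, 7.87, 7.85, 7.62 and 7.97 in FF mice 1 to 5, against 8.45, 8.74, 8.42, 8.20 and 8.04 in VV mice 1 to 5. Its genotypes did not overlap, and the difference was -0.58 ± 0.12, 1.5-fold lower in FF, with an adjusted p of 0.0574. It passed the threshold in 5 of 22 alternative settings, among them array weights and both filters on dim genes. Clec4n, the mannan receptor dectin-2, differed by -0.20 ± 0.06 (adjusted p = 0.134), and its mean lay in the lowest 25% of all genes measured, where the signal over background is smallest. It read 4.93 to 5.18 in FF mice and 5.10 to 5.31 in VV mice. The lectin Clec10a, which binds galactose-type sugars, differed by -0.10 ± 0.12 (adjusted p = 0.721). Its 5 FF mice, at 8.86 to 9.54, reached both under and over the VV mice, at 9.19 to 9.34.

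The scavenger receptors were not alike either. Mrc1, the mannose receptor CD206, differed by -0.27 ± 0.09 (adjusted p = 0.145), with 10.32 to 10.68 in FF mice and 10.57 to 10.89 in VV mice. Msr1, scavenger receptor A, differed by -0.34 ± 0.15 (adjusted p = 0.273), with 7.97 to 8.35 in FF mice and 8.26 to 9.08 in VV mice and VV mouse 2 the highest. The haemoglobin scavenger receptor Cd163 read 9.63, 9.75, 10.38, 9.75 and 9.32 in FF mice 1 to 5, against 10.10, 9.74, 9.74, 10.08 and 9.56 in VV mice 1 to 5. It did not separate the genotypes: FF mouse 3 was the highest of all and FF mouse 5 the lowest. Cd163 differed by -0.08 ± 0.18 (adjusted p = 0.874), with a 95% interval from -0.46 to 0.31. Marco, a scavenger receptor of marginal zone and lymph node macrophages, and Siglec1, the sialoadhesin of such cells, differed by -0.12 ± 0.10 and -0.19 ± 0.10 (adjusted p = 0.612 and 0.349). Marco read 5.84 to 6.21 in FF mice and 5.95 to 6.41 in VV mice, and Siglec1 read 8.89 to 9.35 in FF mice and 9.20 to 9.55 in VV mice, so both overlapped.

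Receptors for dying cells, grouped with the folate receptor Folr2 of resident macrophages, gave the smallest median of the role groups, -0.15 over 4 genes. Timd4, a phosphatidylserine receptor of long-lived resident macrophages, read 8.16, 8.18, 8.18, 8.28 and 7.99 in FF mice 1 to 5, against 8.25, 8.54, 8.30, 8.37 and 8.64 in VV mice 1 to 5. All FF mice but number 4 lay under all VV mice, and the difference was -0.26 ± 0.08 (adjusted p = 0.139). Mertk, a receptor kinase for bridged phosphatidylserine, read 10.16, 10.07, 10.48, 9.89 and 9.68 in FF mice 1 to 5, against 10.36, 10.25, 10.08, 10.08 and 9.93 in VV mice 1 to 5. As for Cd163, FF mouse 3 was the highest of all and FF mouse 5 the lowest. Mertk differed by -0.08 ± 0.13 (adjusted p = 0.808), the related kinase Axl by -0.10 ± 0.08 (adjusted p = 0.564) and the folate receptor Folr2 by -0.19 ± 0.08 (adjusted p = 0.263). Axl read 11.11 to 11.53 in FF mice and 11.35 to 11.59 in VV mice. Folr2 read 10.54 to 10.94 in FF mice and 10.73 to 11.03 in VV mice, and 3 VV mice lay above every FF mouse. The 95% intervals of Mertk, -0.38 to 0.21, and Axl, -0.28 to 0.07, include 0, which does not show that the genotypes were alike.

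Lipid-associated genes had a median difference of -0.39 and wide scatter between mice. Gpnmb, a glycoprotein of lipid-laden macrophages, read 8.24, 9.41, 9.82, 8.90 and 9.63 in FF mice 1 to 5, against 9.90, 10.67, 10.16, 9.73 and 9.08 in VV mice 1 to 5. Both genotypes spanned about 1.58 log2 units, and FF mouse 3 lay above VV mice 4 and 5. Gpnmb differed by -0.71 ± 0.33, the largest standard error of the 37, with an adjusted p of 0.322. Trem2, the lipid receptor that signals through Tyrobp, read 8.64, 8.57, 8.78, 8.77 and 9.23 in FF mice 1 to 5, against 9.18, 9.66, 8.99, 9.04 and 9.06 in VV mice 1 to 5. Only FF mouse 5 lay within the VV range, and the difference was -0.39 ± 0.15 (adjusted p = 0.213). Lgals3, the lectin galectin-3, differed by -0.40 ± 0.16 (adjusted p = 0.234) and the tetraspanin Cd9 by -0.16 ± 0.14 (adjusted p = 0.606). Lgals3 read 9.59 to 10.16 in FF mice and 9.75 to 10.60 in VV mice. For Cd9, with 8.33 to 9.19 in FF mice and 8.63 to 9.03 in VV mice, no VV mouse lay above the highest FF mouse.

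Of the remaining identity genes, Adgre1 and Retnla marked the ends. Adgre1, which encodes the surface marker F4/80, read 9.44, 9.68, 9.81, 9.97 and 9.83 in FF mice 1 to 5, against 10.15, 10.83, 10.15, 10.21 and 10.04 in VV mice 1 to 5. Its genotypes did not overlap, and VV mouse 2 stood far above the rest. The difference was -0.53 ± 0.15 (1.45-fold lower in FF, adjusted p = 0.105), and without VV mouse 2 it was -0.39. Ms4a7, a membrane protein of resident macrophages, differed by -0.46 ± 0.14 (adjusted p = 0.125), and Aif1, the actin-binding protein Iba1, by -0.19 ± 0.12 (adjusted p = 0.501). Ms4a7 read 7.57 to 8.32 in FF mice and 8.23 to 8.76 in VV mice, with 4 FF mice under all VV mice. Aif1 read 5.73 to 6.07 in FF mice and 5.80 to 6.47 in VV mice, with VV mouse 2 the highest. Retnla, a secreted protein of alternatively activated macrophages, read 12.54, 12.60, 12.70, 12.72 and 12.78 in FF mice 1 to 5, against 12.68, 12.60, 12.82, 12.62 and 12.74 in VV mice 1 to 5. The genotypes overlapped nearly throughout, and the difference was -0.02 ± 0.06 (adjusted p = 0.886, 95% interval -0.16 to 0.11).

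The mice differed among themselves along the same genes. VV mouse 2 was the highest of the 10 mice for 24 of the 37 genes, and FF mouse 1 was the lowest for 22. After each gene was centred over the 10 mice, the members averaged -0.36, -0.21, -0.02, -0.12 and -0.04 in FF mice 1 to 5, against 0.10, 0.40, 0.15, 0.06 and 0.05 in VV mice 1 to 5. The averages of the genotypes did not overlap, and the gap between the highest FF mouse and the lowest VV mouse was small beside the spread within either. Within FF, mouse 5 was highest for 16 genes, among them Spi1, Tyrobp, Trem2 and Lgals3, and mouse 3 was highest for 14, among them Csf1r, Mrc1, Cd163 and Mertk.

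**Figure D3:**
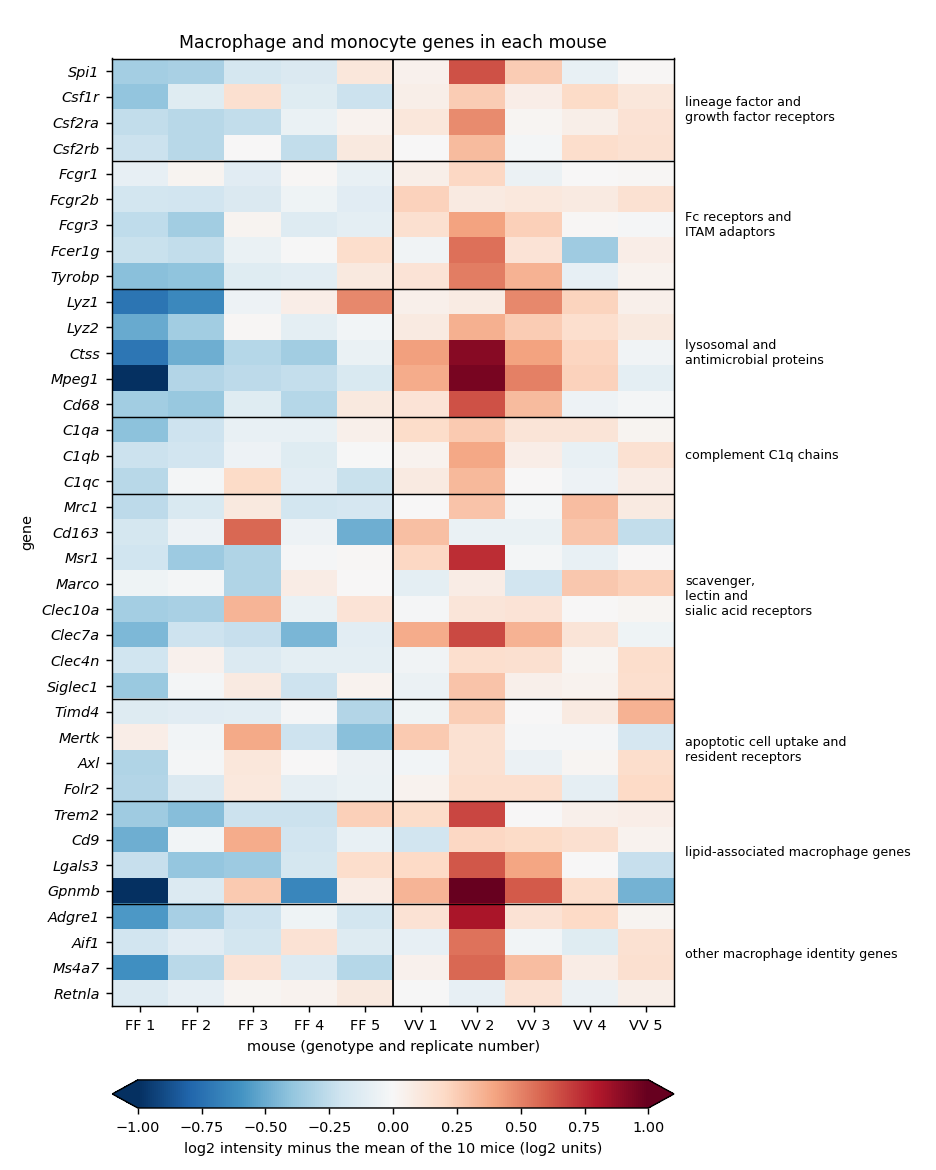
Level of each macrophage and monocyte gene (rows, grouped by role) in each mouse (columns, 5 FF left of the line and 5 VV right of it), as log2 intensity minus the mean of the 10 mice; colours saturate at 1 log2 unit from that mean. FF columns are mostly blue, mouse 1 most of all, and VV mouse 2 is the darkest red column.

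Other genes of the same pathways were read in 3 lists. Of 23 measured growth factors and lineage regulators, 1 fell and none rose, and at an unadjusted p under 0.05 there were 3 lower and 2 higher. That gene was Irf8, an interferon regulatory factor of monocytes, dendritic cells and B cells, which pairs with PU.1 on the composite motif printed with the sequences. It read 8.73, 9.09, 8.90, 9.01 and 8.92 in FF mice 1 to 5, against 9.25, 9.55, 9.46, 9.30 and 9.62 in VV mice 1 to 5. The genotypes did not overlap, and Irf8 fell by 0.51 ± 0.09 (adjusted p = 0.0352). That call was lost in 12 of 22 alternative settings, with adjusted p up to 0.131, among them leaving out any one mouse but FF mouse 3 or VV mouse 1. The median of the list was -0.04, and the ligands Csf1 and Il34 differed by -0.13 ± 0.07 and 0.04 ± 0.08 (adjusted p = 0.433 and 0.869). Of 25 measured genes of ITAM receptor signalling, 0 passed the test over all genes in limma, 21 lay lower at an unadjusted p under 0.05 and 0 higher, and the median was -0.31. Pik3ap1, an adaptor of phosphoinositide 3-kinase, differed by -0.51 ± 0.11, the exchange factor Vav1 by -0.45 ± 0.10 and the kinase Pik3cg by -0.41 ± 0.10 (adjusted p = 0.0617, 0.0692 and 0.0756). Of 23 lysosome and lipid handling genes, 0 passed in limma and 4 lay lower at an unadjusted p under 0.05, with a median of -0.08. The protease Ctsl differed by -0.21 ± 0.05, the proton pump subunit Atp6v0d2 by -1.31 ± 0.43 and the lysosomal lipase Lipa by -0.30 ± 0.11 (adjusted p = 0.0788, 0.156 and 0.184).

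Markers of other leukocytes were read in the same mice. Of 11 pan-leukocyte genes, 2 fell, and all 11 lay lower at an unadjusted p under 0.05. Ptprc, which encodes CD45, fell by 0.68 ± 0.13 (adjusted p = 0.0422), a call lost in 12 of 22 alternative settings, among them leaving out FF mouse 1, 2 or 5 or VV mouse 2, 3, 4 or 5. The median of the 11 was -0.39, against -0.27 for the macrophage genes, and their centred level ran from -0.40 to -0.05 in FF mice and from 0.04 to 0.54 in VV mice. When the mean of these 11 genes was subtracted from each member in the same mouse, 31 of the 37 differences turned positive and 6 stayed negative (Mpeg1, Ctss, Gpnmb, Clec7a, Adgre1 and Ms4a7), with a median of 0.16. The subtraction moves all 37 differences by the same amount, the gap between leukocyte means of 9.07 in FF and 9.50 in VV. The split therefore only counts members whose fall was smaller or larger than that gap, a description with no test. T and NK cell genes had a median of -0.30 over 13 genes, 9 of them lower at an unadjusted p under 0.05, with levels from -0.24 to -0.05 in FF mice and from 0.03 to 0.22 in VV mice. B cell genes had a median of -0.44 over 7, 6 of them lower at that level, with levels from -0.64 to 0.26 in FF mice and from -0.0023 to 0.71 in VV mice, so that FF mouse 4 lay above VV mice 1 and 3. Dendritic cell genes had a median of -0.19 over 8, 4 of them lower, with levels from -0.36 to -0.04 in FF mice and from 0.04 to 0.23 in VV mice. None of these lymphocyte and dendritic cell genes passed the test in limma. Laptm5 and Rac2 stand in both the pan-leukocyte and the ITAM list. Neutrophil and mast cell genes had medians of 0.01 and -0.02 over 8 genes each. The part of these cells in the results on the macrophage genes was not tested.

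**Figure D4:**
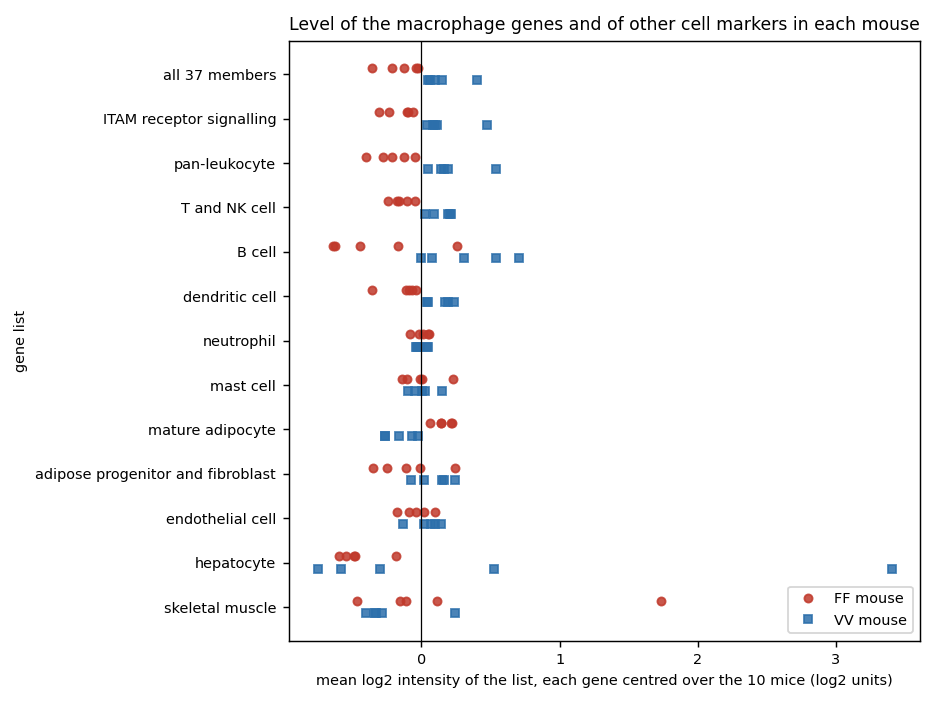
Mean log2 intensity of the 37 macrophage genes and of lists of other genes in each mouse, with each gene centred over the 10 mice (red circles, FF; blue squares, VV). The FF and VV mice are apart for the macrophage genes, ITAM signalling, pan-leukocyte, T and NK, dendritic and mature adipocyte lists, the last through Cidea, without which the mice overlapped, and single mice stand out for hepatocyte and skeletal muscle genes.

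Other cells of the depot and RNA of neighbouring tissues were read in the same way. Adipoq, the adipocyte hormone that marks the labelled tissue, read 13.34 ± 0.07 in FF and 13.38 ± 0.07 in VV. Over 10 adipocyte genes the median was 0.06, and Cidea, a lipid droplet protein of thermogenic fat, rose by 2.96 ± 0.41. The level of the list ran from 0.06 to 0.22 in FF mice and from -0.26 to -0.03 in VV mice. Without Cidea, a reading added after the values were seen, the level of the other 9 ran from -0.04 to 0.06 in FF mice and from -0.07 to 0.05 in VV mice, so the genotypes overlapped. Progenitor and fibroblast genes had a median of -0.26 over 9 and endothelial genes one of -0.07 over 8. Deptor, the gene in the series title, read 10.88 ± 0.07 in FF and 10.34 ± 0.10 in VV. Hepatocyte genes averaged 3.41 above the mean of the 10 mice in VV mouse 1 and 0.52 in VV mouse 2, against -0.75 to -0.18 in the other 8 mice, and muscle genes averaged 1.73 in FF mouse 1 and at most 0.24 elsewhere. Kupffer cell markers had a median of -0.31 over 5 genes, with levels from -0.35 to 0.00 in FF mice and from -0.02 to 0.35 in VV mice. All 5 lay lower in FF, and their genotypes overlapped. C6 differed by -0.46 ± 0.12 and Vsig4 by -0.46 ± 0.13 (adjusted p = 0.0902 and 0.106 in limma). Cd5l differed by -0.31 ± 0.13 and Slc40a1 by -0.26 ± 0.20 (adjusted p = 0.252 and 0.565 in limma). Clec4f, which defines that liver macrophage, differed by -0.02 ± 0.08, with 5.91 to 6.33 in FF mice and 6.35 in VV mouse 1. The part of liver macrophages in the macrophage genes was not tested.

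Results on the macrophage genes were recomputed without those mice. Without FF mouse 1 and VV mouse 1, 35 of 37 members lay lower, with a median of -0.25, 18 of them at an unadjusted p under 0.05 and 0 past the test. Without VV mice 1 and 2, a setting added after the values were seen, 36 lay lower, with a median of -0.24, 16 of them at that level and 0 past the test. The depot also holds a lymph node. Its stroma and sinus genes had a median of -0.19 over 6, of which Marco and Siglec1 are themselves among the 37 and Ccr7 is also in the dendritic cell list. Without those 2 members the median was -0.33 over 4, with levels from -0.40 to 0.06 in FF mice and from -0.02 to 0.47 in VV mice, which overlapped. Cxcl13, a chemokine of node stroma, differed by -0.84 ± 0.23 (adjusted p = 0.0964) without overlap between the genotypes. The other genes of this list overlapped. Ccr7 differed by -0.19 ± 0.07, Madcam1 by -0.0043 ± 0.09 and Glycam1 by -0.48 ± 0.30 (adjusted p = 0.214, 0.988 and 0.473 in limma). Glycam1 read 7.13 in VV mouse 3, against 5.29 to 5.80 in the other VV mice. Ccl21a and Ccl19 of the list were not among the genes analysed. The part of the node in the macrophage genes was not tested.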

How the data were processed

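The authors deposited log2 intensities per probe set, made with RMA per the submitters' processing notes. The sources used here do not give its version or the build behind the array design. Of 35557 probe sets, the 9868 with no values were left out and 25689 were valued throughout. Of those valued, 20777 named 1 gene, 232 several and 4680 none, and the probe set with the highest mean stood for a gene, for a total of 19659 genes. RefSeq names and chromosomes were those on GRCm38.p6.

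The genotypes were compared by limma 3.58.1 (R 4.3.3; a linear model per gene without covariates, moderated, two-sided), adjusted by Benjamini-Hochberg over all genes at 0.05. Differences are FF minus VV, ± SE. On simulated data of 19659 genes for this comparison, 87 of 100 genes shifted by 0.5 and 95 of 100 shifted by 1 were recovered, with 3 false among 185 calls. The shifted genes were picked at random and the noise was independent between genes. These rates therefore do not describe genes that vary together between mice, as the members do. Most members also scattered more within a genotype than most genes, which lowers recovery at a given shift. The SD within genotypes lay at percentile 95.2 of all genes for Ctss, 96.8 for Mpeg1 and 93.5 for Adgre1. It lay below the median of all genes for Fcgr2b (percentile 10.5), Fcgr1, Clec4n and Retnla alone. The members, lists, roles and settings were chosen with earlier results of these data known. Named are all members, list genes past the threshold except 1 pan-leukocyte gene not reported here, otherwise the 3 (pathways) or up to 2 (markers) with the smallest p, besides Ptprc and Deptor; Csf1, Il34, Clec4f and Adipoq were added for their roles. Figures used matplotlib 3.10.9.

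Alternatives left out single mice, both mice numbered 1, or VV mice 1 and 2 (added after seeing the data), added a replicate block, changed the normalisation or the intensity filter, and used other limma settings or an unmoderated test.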

Additional observations from a re-analysis of the deposited data

Results flagged for a closer look

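In groups of 5 mice, 142 sets of values from 71 genes were screened for a mouse far from the other 4 of its genotype, and 9 stood out, where chance gives about 1 in 20. VV mouse 2 stood above the other VV mice for Csf2ra (10.82, next highest 10.49), Trem2 (9.66, next 9.18), Adgre1 (10.83, next 10.21) and the signalling gene Vav1 (7.97, next 7.53). FF mouse 1 stood below the other FF mice for Mpeg1 (7.41, next lowest 8.13) and above them for Mmp8, a neutrophil collagenase (4.97, next highest 4.82). FF mouse 4 was high for Aif1 (6.07, next 5.81), FF mouse 5 for Ctsl (12.14, next 11.98) and VV mouse 4 for Cldn5, an endothelial junction gene (11.21, next 10.87).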

How the results depend on the processing

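In 22 alternative settings the median difference of the members stayed between -0.30 and -0.23, and 16 to 26 members lay lower at an unadjusted p under 0.05, against 23 as reported. The 1 member past the adjusted threshold became 0 to 2 when single mice were left out (0 without FF mouse 1, 2 or 5 or VV mouse 2, 3, 4 or 5, and 2 without FF mouse 3). It became 0 without both mice numbered 1, without VV mice 1 and 2, with the unmoderated test and with the replicate block. It became 2 with an intensity trend and robust settings, and 3 with array medians subtracted, with array weights, and without genes below the 25th percentile or the median of intensity. Calls over all genes rose in these settings too, from 148 to 181, 601, 383, 230 and 355 in that order. Without FF mouse 3 they rose to 379. The 4 genes of other lists past the threshold became 0 to 9 without single mice, 1 without both mice numbered 1, 0 with the replicate block, with the unmoderated test and without VV mice 1 and 2, 10 with array medians subtracted, and 9 with array weights or either filter on dim genes. All genes past the threshold, 148 as reported, ranged from 5 with the replicate block to 601 with array medians subtracted, which moved the median of all genes to 0.04 and the split of calls to 554 higher and 47 lower, against 122 and 26. The filters test fewer genes; the cause of the other shifts was not tested. Of 37 members, 34 kept their direction in every setting run on them. Retnla turned to 0.00703 without FF mouse 1, 0.00886 without VV mouse 3, 0.00341 without both mice numbered 1 and 0.0128 with array medians subtracted (-0.0525 to 0.00886 over single mice). Cd163 turned to 0.0351 without FF mouse 5 (lowest -0.23) and 0.0226 without both mice numbered 1, and Mertk to 0.00826 without FF mouse 5 (lowest -0.19) and 0.0235 without VV mice 1 and 2. The labels tie equal replicate numbers to no shared animal, litter or day, and deviations of same-numbered mice from their group means correlated at 0.10, 0.01, -0.08, -0.26 and -0.15 over all genes for numbers 1 to 5, with 1 of the 5 correlating best within its own number, so no pairing was used. With the replicate block the smallest adjusted p of a member was 0.168. Clec4n, Aif1, Marco and Fcgr1 have means below the median of all genes, where signal over background limits a difference.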

Other observations

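Itgax and Atp6v0d2 were among the listed genes outside the set that scattered widely between mice. Itgax, an integrin of dendritic cells and some macrophages, read 7.10, 7.04, 6.88, 7.59 and 8.16 in FF mice 1 to 5, against 8.44, 9.09, 8.42, 7.80 and 7.58 in VV mice 1 to 5. Atp6v0d2, a proton pump subunit of lipid-laden macrophages and osteoclasts, read 6.96, 7.21, 7.71, 7.74 and 8.81 in FF mice 1 to 5, against 9.20, 10.14, 9.24, 8.49 and 7.87 in VV mice 1 to 5. In both, FF mouse 5 lay above VV mice 4 and 5. Their differences were -0.92 ± 0.30 and -1.31 ± 0.43 (limma adjusted p = 0.162 and 0.156). The B cell gene Ms4a1, which encodes CD20, differed by -1.41 ± 0.36 (adjusted p = 0.0875), and FF mouse 4 read 8.92, above VV mice 1 and 3.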
